A study of Mus musculus with 3 samples.

Results

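The genes described here encode the kinases that drive RNA polymerase II through transcription elongation, their cyclins, and regulators of the kinase P-TEFb. They were chosen by name, with earlier results of these data known. They number 9 of the 18193 genes that the array's annotation table names by a probe set with 1 symbol. These are the kinases Cdk9, Cdk12, Cdk13 and Cdk7 and the cyclins Ccnt1 and Ccnt2. The others are the 7SK particle proteins Hexim1 and Larp7 and the elongation factor Ell2. B16 cells, a cultured mouse melanoma line, were profiled on 1 Affymetrix Mouse430_2 array each at 0, 2 and 4 h of doxorubicin at 1 µg/ml. Doxorubicin is an anthracycline drug that slips between DNA bases and traps topoisomerase II on DNA. The cell line and the drug are those of the array titles, and other label fields differ, as given below. By their titles all arrays came from the same cell line, and the medium was the same and contained serum. The 0 h array stood for cells before exposure. There was no replicate array at any time point and no untreated culture at 2 or 4 h. No difference could be set against a spread between cultures, no p-value was computed, and drug cannot be told apart from hours in culture or handling.

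At most mammalian genes, a paused polymerase is released into productive elongation. P-TEFb, made of Cdk9 and a cyclin T, phosphorylates the polymerase tail and the pausing factors. A large share of P-TEFb is kept inactive in a particle built on the 7SK RNA, in which Hexim1 inhibits the kinase and Larp7 protects the RNA. In other cell systems, agents that block transcription release P-TEFb from this particle. Cdk12 and Cdk13 pair with cyclin K and act later along genes, while Cdk7 pairs with cyclin H inside the initiation factor TFIIH and activates other kinases.

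The annotation table assigned 31 probe sets to the 9 genes. Signals are the authors' scaled intensities, rescaled here to a trimmed mean of 500 on each array. Signals under 100 were set to 100, the floor. No ratio was taken where both arrays were under the floor, and with 1 array under it the ratio is a bound. A probe set passed the expression filter when its geometric mean over the 3 arrays was at least 200. Of the 31 probe sets, 15 passed and 8 lay under the floor on every array. Cdk9, Cdk12, Cdk13, Cdk7, Ccnt1, Hexim1 and Larp7 had at least 1 passing probe set, and Ccnt2 and Ell2 had none. The brightest passing probe set stood for each gene, and for the 9 genes the other probe sets are described beside it. Probe sets differ in affinity, so ratios were taken between time points of 1 probe set.

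Promoter windows are shown for the genes that moved in different ways across the course. Among the 7 passing genes, Hexim1 had the highest ratio at 2 h and Larp7 the highest at 4 h. Cdk9 and Ccnt1, the subunits of P-TEFb, were lower at both times. Each sequence is the 250 bases before the start that RefSeq's promoter table gives for the gene on GRCm38.p6, written 5′ to 3′ on the strand of the gene. Capitals mark the letters of the motifs searched.
Hexim1: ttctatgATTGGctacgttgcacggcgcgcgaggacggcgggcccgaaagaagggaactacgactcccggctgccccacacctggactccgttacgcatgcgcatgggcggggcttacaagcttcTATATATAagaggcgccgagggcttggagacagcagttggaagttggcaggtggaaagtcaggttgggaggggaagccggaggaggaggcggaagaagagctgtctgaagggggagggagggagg
Larp7: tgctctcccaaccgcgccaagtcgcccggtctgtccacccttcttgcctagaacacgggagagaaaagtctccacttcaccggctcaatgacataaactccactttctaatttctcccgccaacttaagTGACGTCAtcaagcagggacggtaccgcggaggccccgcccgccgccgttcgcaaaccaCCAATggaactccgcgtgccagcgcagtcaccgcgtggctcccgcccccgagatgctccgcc
Cdk9: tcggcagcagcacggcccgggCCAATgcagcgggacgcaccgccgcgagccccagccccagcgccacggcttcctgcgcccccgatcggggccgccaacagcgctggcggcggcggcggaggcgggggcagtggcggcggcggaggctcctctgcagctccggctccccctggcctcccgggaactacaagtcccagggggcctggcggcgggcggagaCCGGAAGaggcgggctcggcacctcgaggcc
Ccnt1: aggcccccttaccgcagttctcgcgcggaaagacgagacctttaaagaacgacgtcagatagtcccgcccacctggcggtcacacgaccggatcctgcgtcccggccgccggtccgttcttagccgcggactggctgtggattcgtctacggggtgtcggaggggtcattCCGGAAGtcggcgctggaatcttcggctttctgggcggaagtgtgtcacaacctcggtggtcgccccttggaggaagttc
The Hexim1 window lies at chr11:103116075-103116324 on the plus strand. The Larp7 window lies at chr3:127553350-127553599, the Cdk9 window at chr2:32712785-32713034 and the Ccnt1 window at chr15:98567737-98567986, all on the minus strand.

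Both strands of the windows of all 9 genes were searched for the TATA box letters in the forms TATATA and, separately, TATAAA, for the cAMP response element TGACGTCA, for the box named by its letters CCAAT, for the E-box CACGTG and for the ETS core CCGGAAG. These motifs were picked after the windows had been read, so their counts are descriptions only. TATATA was found in Hexim1 alone among the 9, as overlapping matches that begin 125 and 123 bases before the start, and in 5.25% of all 32851 windows of that length. TATAAA was found in none of the 9 and in 12.4% of all windows. The CCGGAAG letters were found in Cdk9, Cdk13, Cdk7 and Ccnt1, 4 of the 9 genes, and in 6.91% of all windows. TGACGTCA was found in Larp7 and Ell2, against 1.55% of all windows, CACGTG in Cdk7, against 6.02%, and CCAAT in Cdk9, Ccnt2, Hexim1, Larp7 and Ell2, against 33.8%. For Cdk12 and Cdk13 the table's start lies inside the outermost span of the gene, so the Cdk12 window lies within the gene and the Cdk13 window, its CCGGAAG match included, overlaps it. A match is a description of letters and not a bound site.

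Over all arrays, the median signal of the 45101 probe sets was between 126 and 154, and 9723 genes passed the filter. The probe-level SD used below is the spread of log2 ratios among probe sets that share a gene. Over all 3 comparisons it lay between 0.23 and 0.31 in the brightest of 4 signal bins and between 0.52 and 0.64 in the dimmest, and it holds no variation from culture to culture or array to array. The split of the 9723 genes depended on scaling. At 2 h, 553 genes were at least 2-fold lower and 137 higher, against 368 and 229 with equal medians and 917 and 71 with spike-in scaling. At 4 h, 1396 were lower and 226 higher, against 872 and 724 and against 2206 and 65. Across the 9723 genes the median log2 ratio stood at -0.01 for 2 h and -0.07 for 4 h. Equal medians shifted it by 0.15 and 0.31, quantile normalization by 0.04 and 0.12, and spike-in scaling by -0.22 and -0.32. The file headers place the 4 h array at a later hybridization time on the same day, so its run and its time point cannot be told apart. The arrays were grouped by their titles, which name doxorubicin. The description field names BMDM in place of B16 cells, and the description and source fields name a treatment ET at 2 and 4 h, which the labels do not expand. Of 10 pigment cell markers, 10, 8 and 9 had a signal of at least 200 at 0, 2 and 4 h, and the median signal was 11907, 8003 and 7756. Of these markers, Sox10 (11710, 2640 and 892), Mitf (6576, 2031 and 739), Mc1r (3976, 2200 and 1196) and the dim Tyr (221, 170 and 142) were lower at each later time. Tyrp1 (42568, 44083 and 47128), Dct (35050, 39355 and 42058), Mlana (25242, 27837 and 31317) and Slc45a2 (12104, 13366 and 14315) were higher at each later time, and the summed signal of the list was 173320, 178202 and 183800. Of 10 macrophage markers, 5, 4 and 4 reached it, 3, 3 and 4 were under the floor, and the median signal was 207, 163 and 151. Cd68, the brightest of them, had signals of 1884, 3044 and 3699 and was higher at each later time. Csf1r (522, 424 and 376) and Fcgr1 (199, 130 and 39.9) were lower at each, and Itgam, Ptprc and C1qa were under the floor throughout. The part of such cells in the results was not tested.

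**Figure D1:**
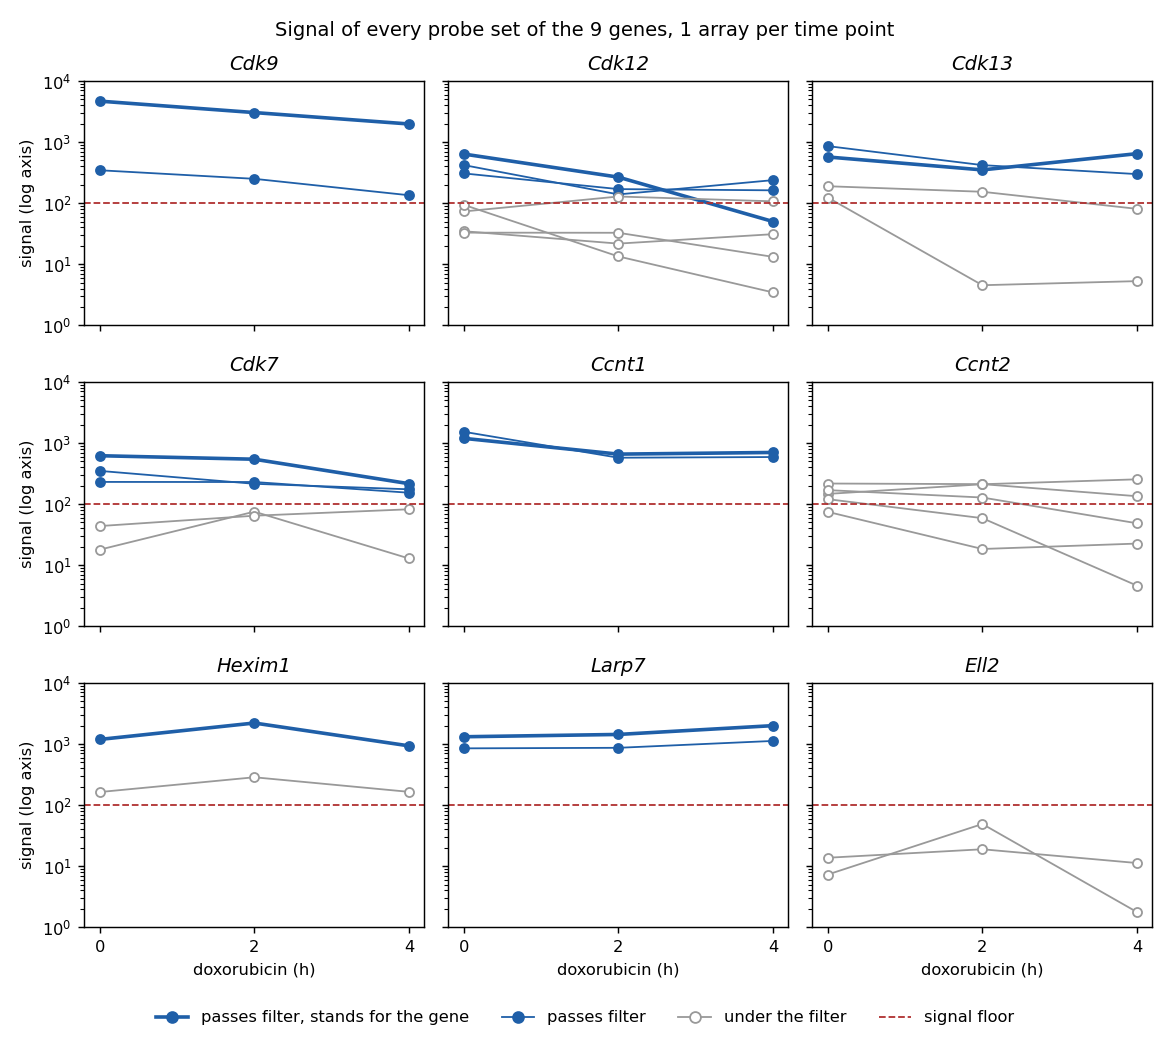
Signal on a log axis against hours of doxorubicin for each of the 31 probe sets of the 9 genes, 1 array per time point. Filled blue points passed the filter, the thick line is the probe set that stands for the gene, open grey points did not pass and the dashed line is the floor of 100. Both Hexim1 lines peak at 2 h, both Cdk9 lines descend at each step, and both Ell2 lines stay under the floor.

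Hexim1, the inhibitory subunit of the 7SK particle, was the gene of the 7 passing that stood highest at 2 h and was lower again at 4 h. Its bright probe set, 1425937_a_at, had signals of 1189, 2207 and 933 at 0, 2 and 4 h. The second probe set, 1419359_at, had 163, 285 and 165 and missed the filter with a geometric mean of 197. On both probe sets the 2 h array was the highest, and the 0 h and 4 h arrays were closer to each other than to it.

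The bright Hexim1 probe set was 1.86-fold higher at 2 h than at 0 h, a log2 ratio of 0.89 with a probe-level SD of 0.34 for its signal bin. The dim one was 1.75-fold higher, a log2 ratio of 0.80. Both values are under the 2-fold line used for counting. Of the 9723 genes, 98.1% had a lower 2 h ratio than Hexim1, and 187 genes (1.92%), Hexim1 included, had one at least as high. In a bulk RNA sample, fewer cells with a transcript and less of it in each cell cannot be told apart.

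From 2 to 4 h the direction turned. At 4 h the bright Hexim1 probe set was 2.37-fold lower than at 2 h, a log2 ratio of -1.24 with a probe-level SD of 0.32, and the dim one 1.73-fold lower, at -0.79. Against 0 h, the 4 h log2 ratios were -0.35 and 0.01, within the probe-level SD of 0.41 for the bright one as reported. Over the settings the bright one lay between -0.67 with spike-in scaling, outside that SD, and -0.05 with equal medians. A 4 h against 2 h ratio as low as that of Hexim1 was found for 295 genes, 3.03% of all. The pattern rests on the single 2 h array, which is part of both comparisons. The 2 h ratio of Hexim1 was positive in all 10 alternative settings that gave a value, from 0.68 with spike-in scaling to 1.05 with equal medians. The deposited values, the other floors and filters and averaging left it at 0.89 by construction. Only the other scalings and the offset could move it. Leaving out suffixed probe sets left no passing probe set for Hexim1.

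Larp7, which binds and stabilises the 7SK RNA, had a different course and was highest at 4 h. Probe set 1429558_a_at had signals of 1315, 1434 and 1999 at 0, 2 and 4 h, and 1428310_at had 849, 867 and 1123. In both, the 0 h and 2 h arrays were close together and the 4 h array was higher. The log2 ratios at 2 h were 0.13 and 0.03, well within the probe-level SD of 0.34. At 4 h they were 0.60 and 0.40, beside an SD of 0.41, so the second lies within it. Larp7 stood above 89.5% of all genes at 4 h. Its 4 h ratio lay between 0.28 with spike-in scaling and 0.91 with equal medians, and its 2 h ratio was -0.09 with spike-in scaling.

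Cdk9, the catalytic subunit of P-TEFb, was lower at each later time point. Probe set 1417269_at had signals of 4685, 3045 and 1981 at 0, 2 and 4 h, and 1457240_at had 346, 250 and 135. Every later array was below the earlier one on both probe sets. The log2 ratios at 2 h were -0.62 and -0.47, with probe-level SDs of 0.26 and 0.54. At 4 h they were -1.24 and -1.36, 2.37-fold and 2.56-fold lower, with SDs of 0.31 and 0.64. The step from 2 to 4 h, at -0.62 on the bright probe set, was as large as the step before it. Cdk9 lay below 0 h in all 11 alternatives, from -1.56 with spike-in scaling to -0.94 with equal medians at 4 h. The other floors and filters could not move its bright probe set, so fewer than 11 of them could change the ratio.

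Ccnt1, which encodes cyclin T1, the main cyclin partner of Cdk9, was lower by 2 h and then level. Its probe set 1419313_at had signals of 1194, 659 and 701 at 0, 2 and 4 h, and 1456477_at had 1530, 575 and 590. The 2 h and 4 h arrays were nearly the same and both were below the 0 h array. At 2 h the log2 ratios were -0.86 and -1.41, 1.81-fold and 2.66-fold lower, with a probe-level SD of 0.34. At 4 h they were -0.77 and -1.37 with an SD of 0.41. Between 2 and 4 h the ratios were 0.09 and 0.04, within the SD of 0.32. The size thus depended on the probe set, and the direction against 0 h did not.

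Ccnt2, the gene of cyclin T2, an alternative partner of Cdk9, gave no dependable value. None of its 5 probe sets passed the filter. The brightest, 1452297_at, had signals of 147, 211 and 255 at 0, 2 and 4 h, with a geometric mean of 199, just under the filter. The next, 1427088_at, went the other way with 217, 212 and 135, and 1453399_at had 169, 128 and 48.5. The remaining probe sets had a highest signal of 120. The Ccnt2 probe sets therefore disagreed in direction at 4 h, with log2 ratios of 0.79 and -0.69 for the first pair. For comparison, the passing probe sets nearest to the filter were 1435299_at of Cdk7, at 201, and 1455964_at of Cdk12, at 204.

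Cdk12, a kinase of productive elongation that is needed for full expression of long DNA repair genes, was below its 0 h signal on all 3 passing probe sets, which differed in the size of the ratio. Probe set 1440858_at had signals of 637, 267 and 50.01 at 0, 2 and 4 h. Probe set 1425556_at had 421, 139 and 238, and 1455964_at had 307, 170 and 162. Both treated arrays were below the 0 h array on each. The log2 ratios at 2 h were -1.26, -1.60 and -0.85, with a probe-level SD of 0.54. At 4 h the first was under the floor, which makes it at least 6.37-fold lower, whereas the others were 1.77-fold and 1.89-fold lower, at -0.82 and -0.92 with an SD of 0.64. All 3 are annotated with an expressed sequence tag. The filter averages over the arrays, 0 h included, and 1455964_at was above the filter value of 200 at 0 h alone. Agreement among the passing Cdk12 probe sets is thus not independent of the filter. A further probe set, 1455567_at, did not pass and went the other way, with 73.1, 128 and 107 and its 0 h signal under the floor. Another 3 were under the floor on every array.

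The step from 2 to 4 h was not settled for Cdk12. It was at least 2.67-fold lower on 1440858_at, while 1425556_at was 1.71-fold higher and 1455964_at was at -0.07. With a floor of 50 or an offset of 50 another probe set became the representative, and the Cdk12 ratio for 4 h against 2 h was 0.78 and 0.61.

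Cdk13, the close relative of Cdk12, was lower at 2 h on both passing probe sets and divided at 4 h. Probe set 1458313_at had signals of 570, 350 and 646 at 0, 2 and 4 h, and 1452897_at had 859, 420 and 299. The 2 h log2 ratios were -0.70 and -1.03 with a probe-level SD of 0.43. At 4 h they were 0.18 and -1.52, so 1 probe set was back above its 0 h signal and the other was 2.87-fold lower. The SD between the pair, 1.20, was larger than the probe-level SD of 0.51. The first is annotated with an expressed sequence tag and the second with a cDNA record. Of the dimmer probe sets, 1430506_at had 189, 154 and 80.7 and 1440833_at had 124, 4.53 and 5.28, both under the floor at 4 h. The direction of Cdk13 at 4 h was thus not settled.

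Cdk7, the kinase of TFIIH, was close to its 0 h signal at 2 h on 2 of 3 passing probe sets and lower at 4 h on all 3. Probe set 1451741_a_at had signals of 620, 543 and 216 at 0, 2 and 4 h. Probe set 1424257_at had 350, 215 and 175, and 1435299_at had 231, 230 and 154. The log2 ratios at 2 h were -0.19, -0.70 and -0.01, with probe-level SDs of 0.43, 0.54 and 0.54. At 4 h they were -1.52, -1.0 and -0.59, with SDs of 0.51, 0.64 and 0.64, so the third lies within its SD. Between 2 and 4 h the ratios were -1.33, -0.30 and -0.58, past 2-fold on the first alone. The other 2 probe sets were under the floor on every array.

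Ell2, a subunit of super elongation complexes that stimulates the polymerase, was not detected. Its probe set 1450744_at had signals of 7.28, 49.0 and 1.77 at 0, 2 and 4 h, and 1458569_at had 13.7, 18.9 and 11.2. All 6 values were under the floor of 100, and no ratio was taken.

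**Figure D2:**
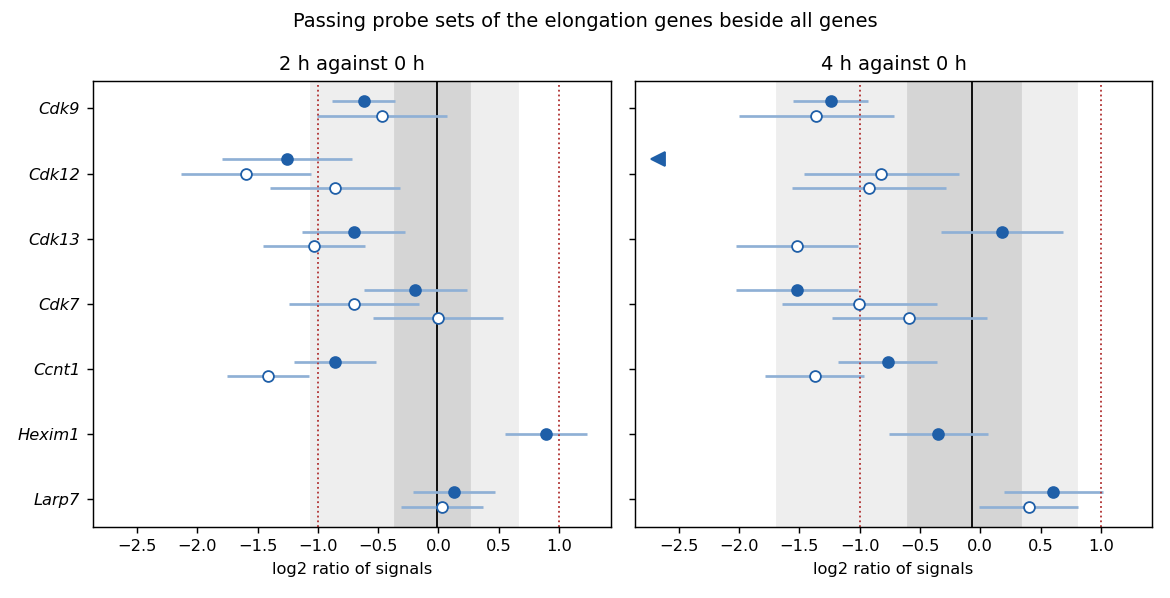
Log2 ratio of signals for the 15 passing probe sets at 2 h (left) and 4 h (right) against 0 h. Filled points stand for the gene, bars are the probe-level SD, the triangle is an upper bound, the darker band runs from the 25th to the 75th and the lighter from the 5th to the 95th percentile of 9723 genes around their median line, and dotted lines mark 2-fold. Hexim1 at 2 h lies right of both bands, and Cdk9, Cdk12, Cdk7 and Ccnt1 lie left of the median at 4 h.

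Of the 7 passing genes, Cdk12 was the 1 at least 2-fold lower at 2 h, where 5.69% of all genes were, and none was at least 2-fold higher, where 1.41% were. At 4 h against 0 h, Cdk9, Cdk12 and Cdk7 were at least 2-fold lower, beside 14.4% of all genes, and none was higher, beside 2.32%. Cdk12 was not past that line with a floor or an offset of 50, and Cdk9 was not with equal medians. Ccnt1, under 2-fold as reported, was past it at 2 and 4 h averaged over its probe sets, at -1.14 and -1.07. It was so with spike-in scaling too, at -1.08 and -1.09, and on its second probe set, 1456477_at, at -1.41 and -1.37. At 4 h against 2 h, Cdk12, Cdk7 and Hexim1 were at least 2-fold lower, beside 5.41% of all genes, and none was higher, beside 0.843%. In this step Cdk12 was at 0.78 and 0.61 with a floor or an offset of 50, at -0.42 with a floor of 200 and at -0.24 averaged over its probe sets. Cdk7 was at -0.74 averaged over its probe sets and at -0.30 without suffixed probe sets. These comparisons share arrays and are not independent of each other. Over the 15 passing probe sets the median log2 ratio was -0.70 at 2 h and -0.92 at 4 h, against -0.01 and -0.05 over all 15785 passing probe sets. At each time 12 of the 15 were below 0, against 50.8% and 52.7% of all, and the number was between 11 and 14 in the other scalings. Probe sets of 1 gene are not independent, and with so few genes these shares describe the set and no more.

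The 9 genes lie on chromosomes 1, 2, 3, 11, 13 and 15 and differ widely in length. On GRCm38.p6 Hexim1 is the shortest at 3.40 kb (chr11:103116325-103119725), followed by Cdk9 at 7003 bases (chr2:32705782-32712784), Larp7 at 16.6 kb, Ccnt1 at 29.0 kb, Ccnt2 at 30.7 kb, Cdk7 at 33.9 kb and Ell2 at 64.9 kb. Cdk12 at 78.7 kb (chr11:98202433-98281101) and Cdk13 at 93.5 kb (chr13:17711676-17805212) are the longest. Among all passing genes, the shortest of 4 equal bins by genomic span, up to 10 kb, had a median log2 ratio of 0.10 at 2 h and 0.04 at 4 h, and the longest bin, from 53.2 kb, had -0.14 and -0.18. From the shortest to the longest bin, the share of genes at least 2-fold lower was 6.51%, 4.86%, 4.45% and 6.96% at 2 h. At 4 h it was 13.8%, 14.0%, 12.8% and 16.8%. Hexim1 and Cdk9 belong to the shortest bin and moved in opposite directions at 2 h. Larp7, Ccnt1 and Cdk7 belong to the bins between, and Cdk12 and Cdk13 to the longest. The part of length in the results was not tested.

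The other genes of elongation control were read from a list of 49, of which 44 had a probe set with 1 symbol and 41 passed the filter. Each is given by its brightest passing probe set, and further probe sets of these genes can differ. The list was drawn up with earlier results of these data known, so its shares describe the list and no more. At 2 h 5 of the 41 were at least 2-fold lower (12.2%, against 5.69% of all genes), and at 4 h 8 were (19.5%, against 14.4%). None was at least 2-fold higher at either time, where 1.41% and 2.32% of all genes were. The median log2 ratio of the 41 was -0.12 at 2 h and -0.35 at 4 h. At 4 h the number lower was 5 with equal medians, where 8.98% of all genes were, and 17 with spike-in scaling, where 22.7% were.

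Of 6 passing genes of the 7SK particle and the P-TEFb carriers, the 2-fold line was passed downward by 2 at 2 h and by 3 at 4 h, beside 5.69% and 14.4% of all genes, or by 2 at 4 h with equal medians and with quantile normalization. Hexim2, a paralog of Hexim1 that can also inhibit P-TEFb, had signals of 520, 188 and 155 at 0, 2 and 4 h, with log2 ratios of -1.46 and -1.75. At 2 h it thus stood on the other side of 0 from Hexim1, on 1 passing probe set. That probe set was above the filter value at 0 h alone, and the filter averages over the arrays, 0 h included. The lower ratios of Hexim2, and its place in the counts above, are thus not independent of the filter. Mepce, which caps the 7SK RNA, had signals of 994, 390 and 419, with ratios of -1.35 and -1.25. The 4 h ratios of its 2 passing probe sets had an SD of 0.45. Brd2, a bromodomain protein that binds acetylated histones, had 3979, 2745 and 1282, with ratios of -0.54 and -1.63. Srsf2, a splicing factor that also contacts the 7SK particle, was at 0.03 and -0.33, and Ppm1g, a phosphatase that releases P-TEFb, at -0.08 and -0.18.

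Among the direct partners of the kinases, none of 3 was 2-fold different. Ccnk, the cyclin of Cdk12 and Cdk13, was at 0.42 at 2 h and -0.03 at 4 h. Ccnh and Mnat1, which complete the Cdk7 complex, were at -0.47 and -0.40 and at -0.13 and 0.10. At 4 h Cdk7 and Cdk12 were lower. As reported, Ccnh was lower too, by more than the probe-level SD of 0.31 for its signal bin. Equal medians shifted the median of all genes by 0.31 at 4 h, so the size of the Ccnh ratio depends on the scaling. Its sign was the same with equal medians, quantile normalization and spike-in scaling. The 4 h ratios of its 2 passing probe sets had an SD of 0.25. Ccnk was close to its 0 h signal at that time.

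In the super elongation complex, Ell, a relative of Ell2, was the 1 of 6 passing genes past 2-fold at both times as reported, beside 5.69% and 14.4% of all genes lower. It was past it at 2 h but not 4 h with equal medians and with quantile normalization, and 2 of the 6 were lower at 4 h with spike-in scaling, beside 22.7%. Its signals were 673, 175 and 326 at 0, 2 and 4 h, with log2 ratios of -1.95 and -1.05. It was lowest at 2 h, opposite in shape to Hexim1. Mllt1, a reader of acetylated histones in the complex, was at -0.38 and -0.92. Aff1, a scaffold, was at 0.32 and 0.05, and Eaf1, a partner of Ell proteins, at 0.31 and 0.42. Each of these genes had 2 passing probe sets. The SD between their 4 h ratios was 0.43 for Ell, 0.52 for Mllt1, 0.18 for Aff1 and 0.49 for Eaf1, so the values depend on the probe set.

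None of 5 passing pausing factor genes was 2-fold different at either time, also with equal medians, quantile normalization and spike-in scaling. Supt5, a subunit of DSIF, had signals of 3619, 3853 and 3811 at 0, 2 and 4 h. Of the NELF subunits, Nelfe was highest, 1.58-fold higher at 2 h, with log2 ratios of 0.66 and 0.27, Nelfb was at 0.02 and -0.15, and Nelfa was lowest at 4 h, at 0.19 and -0.35.

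Among 9 passing PAF complex and elongation factor genes, Iws1, a partner of Supt6, was the 1 gene at least 2-fold lower at 4 h, beside 14.4% of all genes. It was 2.02-fold lower, with log2 ratios of -0.40 and -1.02. None of the 9 was past 2-fold with equal medians or quantile normalization, and 4 were with spike-in scaling, beside 22.7% of all genes. Leo1, a PAF subunit, was at 0.44 and -0.78, a log2 ratio of -1.22 between 2 and 4 h. Tcea1, which rescues arrested polymerase, was at -0.13 and 0.50, and the histone chaperone Supt6 at 0.17 and 0.35. All 6 polymerase tail phosphatase genes were below 0 at 4 h, where 53.9% of all genes were, except that Ssu72 was above 0 with equal medians. At 4 h 1 was at least 2-fold lower, beside 14.4% of all genes, or 4 with spike-in scaling, beside 22.7%. That 1 was Ctdp1, which removes phosphates from the tail, with signals of 889, 353 and 220 at 0, 2 and 4 h and log2 ratios of -1.33 and -2.02. The others named by the rule were Rpap2 at 0.34 and -0.86, Ctdspl at 0.14 and -0.43, and Ssu72 at 0.33 and -0.18.

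Of the other kinases and cyclins tied to transcription, Ccnl1, a cyclin linked to splicing, was the lowest of all 41 genes. Its signals were 1362, 319 and 294 at 0, 2 and 4 h, with log2 ratios of -2.09 and -2.21. Cdk8, the kinase of Mediator, was at -0.55 and -1.33, and its cyclin gene Ccnc at 0.13 and 0.51. Cdk11b, a kinase that pairs with L-type cyclins, was at -0.12 and -0.30.

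**Figure D3:**
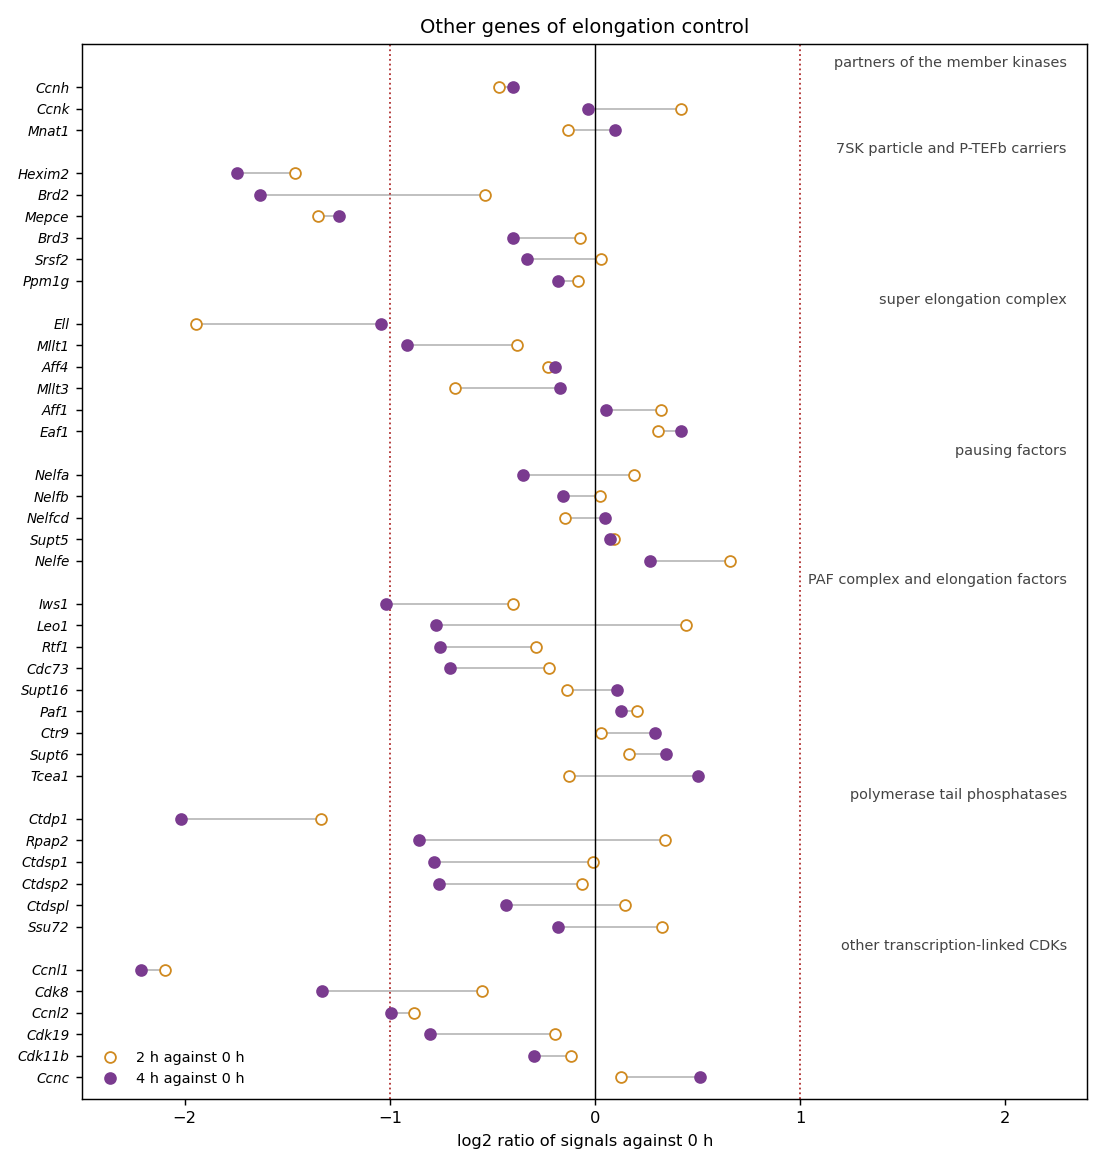
Log2 ratio of signals against 0 h for the 41 passing other genes of elongation control, by group, with open circles for 2 h and filled circles for 4 h. Dotted lines mark 2-fold. Hexim2, Mepce, Ell, Ctdp1 and Ccnl1 lie left of the 2-fold line at both times, and no gene lies right of it.

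Genes with the most similar course were taken by Euclidean distance in the pair of log2 ratios against 0 h, among 9103 genes above the floor on all arrays. Nearest to Hexim1 were Itga5, an integrin subunit, at 0.85 and -0.33 (signals of 714, 1287 and 568), Prelid3a at 0.89 and -0.40, and Vgll2 at 0.80 and -0.34. Prelid3a and Vgll2 had signals under 400 on every array, and Prelid3a reached 200 at 2 h alone. None is given for Cdk12, whose 4 h signal gives only a bound. Nearest to Larp7 were the chaperone Hsp90aa1 at 0.12 and 0.60, the splicing protein Snrpb2 at 0.12 and 0.60, and Far1 at 0.13 and 0.62. The likeness covers 3 arrays only.

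**Figure D4:**
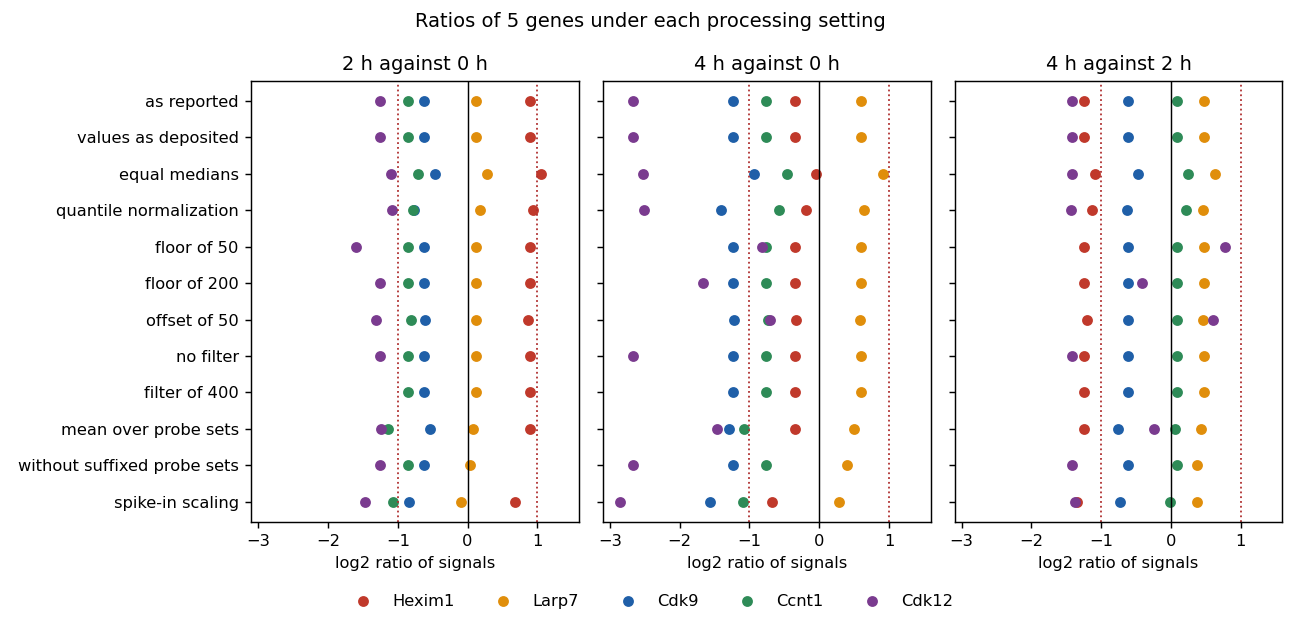
Log2 ratios of Hexim1, Larp7, Cdk9, Ccnt1 and Cdk12 in each comparison under each processing setting, with 2-fold marked by dotted lines. Hexim1 lies right of 0 at 2 h in each setting that gives a value, and the Cdk12 points for 4 h against 2 h lie on both sides of 0. A setting with no point left no passing probe set for that gene.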

How the data were processed

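Per the file headers, the array design was Mouse430_2, and per the submitters' processing notes GCOS 1.4 was used. The algorithm behind the signals is unknown here. The deposited values are linear intensities, scaled by the authors to a 2% trimmed mean of 150.0 on each array, as computed from the values. Every array was brought to a trimmed mean of 500, floored at 100 and turned into log2. Arrays were grouped by their titles. Symbols came from the platform's annotation table, which gives 34958 probe sets 1 symbol and 932 several, and were updated by Entrez ID to GRCm38.p6 for 34754. Probe sets with several symbols and control probe sets stood for no gene. With 1 array per time point there is no test, and the number of arrays limits the precision. Genes were counted at 2-fold. The type of record behind a probe set was read from the prefix of its annotated accession.

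The 9 genes and all lists were chosen with earlier results of these data known. From the list of other elongation genes, the rule named the 2 highest and 2 lowest of each group at 4 h and every gene at least 2-fold different. For similar courses it took the 3 nearest genes to Hexim1 and to the lowest and the highest of the 9 at 4 h, leaving out clone and predicted names, and none is given where the 4 h signal is a bound. Alternatives were the values as deposited, quantile normalization, equal medians over passing probe sets, a floor of 50 or 200 or an offset of 50, a filter of 400 or none, averaging a gene's probe sets, dropping names that end in _x_at, _s_at or _a_at, and, added after seeing the data, scaling to 18 hybridization spike-in probe sets. Counting was tested on simulated data, with large changes planted in bright genes only. That test does not cover dim genes or ratios near 2-fold. Promoter windows are RefSeq's. Software was Python 3.11.15 with matplotlib 3.10.9, scipy 1.17.1, pandas 2.3.3 and numpy 2.4.6.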

Additional observations from a re-analysis of the deposited data

How the results depend on the processing

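No paired analysis was possible because each time point has 1 array. Of 225 log2 ratios of the 7 passing genes under 11 alternatives, 210 moved by less than the probe-level SD, 13 moved further, and 2 that were past 2-fold as reported changed sign. These are Cdk12 at 4 h against 2 h, -1.42 as reported, 0.78 with a floor of 50 and 0.61 with an offset of 50, where another probe set stood for the gene. The 210 include ratios that a setting could not change, such as those of bright probe sets under another floor or filter. Under 2-fold, the sign also changed for Cdk13 at 4 h against 0 h, at -0.67 averaged over its probe sets and -0.14 with spike-in scaling, and, under that scaling, for Larp7 at 2 h (-0.09) and Ccnt1 at 4 h against 2 h (-0.01). The number of the 9 genes at least 2-fold lower at 2 h was 1 as reported, 0 with a filter of 400, which removed Cdk12, and 2 with spike-in scaling and with the mean over probe sets. The number lower at 4 h against 0 h was 3 as reported, 2 with equal medians (Cdk9 at -0.94), with a floor of 50 or an offset of 50 (Cdk12 at -0.82 and -0.71) and with a filter of 400, and 4 with spike-in scaling and with the mean over probe sets. The number lower at 4 h against 2 h was 3 as reported, 2 with a floor of 50 or 200, an offset of 50 and a filter of 400, and 1 with the mean over probe sets and without suffixed probe sets. The number higher was 0 in each comparison as reported. It was 1 with equal medians at 2 h (Hexim1) and at 4 h against 2 h (Cdk13), and 1 with quantile normalization at 4 h (Ccnt2, which passed the filter there) and at 4 h against 2 h (Cdk13). Of the other elongation genes, 8 were at least 2-fold lower at 4 h as reported, 5 with equal medians, 5 with quantile normalization and 17 with spike-in scaling. The causes of shifts other than a changed probe set were not tested. A floor of 200 lets every gene pass. The probe-level SD, up to 0.64 in the dimmest bin, limits dim probe sets.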

Other observations

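Besides Hexim1, 7 genes had both a 2 h against 0 h ratio at least as high and a 4 h against 2 h ratio at least as low as Hexim1, found after its values were seen. The signals of the 7 genes at 0 h lay between 169 and 314. Sema3f, a secreted guidance cue, had signals of 246, 1543 and 216 at 0, 2 and 4 h on a probe set with a cross-hybridisation suffix. Rnf25 and Rnf31, RING finger ubiquitin ligases, had signals of 314, 764 and 274 and of 171, 379 and 158. Smap2 had signals of 230, 439 and 142. Rnf31, Ccdc88c and Il1f8 were above the filter value at 2 h alone. The filter averages over the arrays, 2 h included, so the peak of these genes is not independent of the filter.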
